A study of Mus musculus with 4 samples.

Results

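A group of 82 genes was higher in 2 transfected miR-26a knockout fibroblast cultures than in an untransfected miR-26a knockout culture. Each transfected culture had received 1 of 2 small RNA duplexes. The genes were chosen by their measured values. A gene was taken when its log2 ratio of normalized counts to the untransfected knockout library, after adding 1 to each count, was at least 0.4 with each duplex, the negative control and the miR-26a mimic. The 2 ratios also had to differ by less than 0.4, and the gene needed at least 50 normalized counts in both transfected libraries. Genes with predicted or clone names and the imprinted gene Mest were left out. Of the 16416 genes in the deposited table, 11076 met the count and name conditions and are called the genes considered, and 82 of them, 0.74%, were chosen. The ratio limit equals 1.32-fold. The same limits turned downwards, with the count minimum in the untransfected knockout, hold for 105 genes.

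RNA of 4 cultures of mouse synovial fibroblasts was sequenced, with 1 library per group, so that no group had a replicate. The groups were miR-26a -/- cells transfected with 10 nM Silencer Negative Control siRNA, miR-26a -/- cells transfected with 10 nM miR-26a mimic, untransfected miR-26a -/- cells, and wild-type C57BL6/J cells. Transfection used Lipofectamine RNAiMax and lasted 24 h. All cells grew out of shoulder joint capsule tissue taken 1 week after immobilization. They were kept in DMEM medium that contained 10 % fetal bovine serum and were used at passage 2. The knockout cells called untransfected are those whose label names no transfection. Whether they received reagent or a change of medium is not given in the sources used here, and no sample is labelled as treated with reagent alone. What the oligonucleotide, the reagent and the handling each contributed therefore cannot be told apart. Which copy of the miR-26a gene was deleted, and whether cells of several animals were pooled, is not given in the sources used here.

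Cationic lipid reagents carry double-stranded RNA through the endosome into the cytoplasm. There a strand of a miRNA duplex is loaded into an Argonaute protein and represses mRNAs that pair with its seed, the bases 2 to 8 of that strand, mostly in their 3′ untranslated regions (UTRs). A negative control siRNA is designed to have no mRNA target, and it serves to show what delivery alone does to a cell. Cells can also sense foreign RNA through endosomal and cytoplasmic receptors that induce interferon genes. NRF2 and ATF4 are transcription factors that act in oxidative stress and in amino acid shortage.

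The strands of the mimic are shown because matches to their seeds were counted in the chosen genes. Capitals mark the seed of each strand, bases 2 to 8. The sequence of the negative control siRNA was not used here, so its seeds could not be compared with these.
mimic, sense strand: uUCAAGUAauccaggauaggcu
mimic, antisense strand: cCUAUUCUugguuccuugcacg
mmu-miR-26a-1-3p: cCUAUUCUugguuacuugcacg
The sense strand equals mmu-miR-26a-5p in RefSeq (build GRCm38.p6), which lies at chr9:119031811-119031832 and at chr10:126995543-126995564, both on the plus strand. The antisense strand differs from mmu-miR-26a-1-3p, at chr9:119031850-119031871, by 1 base, A14C, counted from the 5′ end with the RefSeq base first. The gene table has no row for a miR-26a gene, and mature miRNA was not measured. Ctdspl and Ctdsp2, which host the miRNA in their introns, had 476 and 4379 normalized counts in the untransfected knockout, against 475 and 7519.6 in the wild type. Neither host gene is among the chosen genes.

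The libraries held between 17598763 and 19392655 estimated counts. Markers of fibroblasts, the labelled cell type, and of macrophages were both abundant. The 12 fibroblast markers examined summed to 14812 TPM (a level per transcript length that has the same sum in every library) in the negative control library, 16562 in the mimic library, 16620.1 in the untransfected knockout and 25284 in the wild type. The 15 macrophage markers, among them Csf1r, Lyz2 and C1qa, summed to 31942 TPM in the negative control library, 31905 in the mimic library, 32972 in the untransfected knockout and 22326 in the wild type. No macrophage marker passed 0.4 in either direction in a transfected library against the untransfected knockout, and the median over the 15 was 0.02 for both oligonucleotides. Of the fibroblast markers 0 of 12 were above the untransfected knockout in the negative control library and 3 of 12 in the mimic library. At least 0.4 lower were 3 with the negative control and 1 with the mimic, and 0 were as much higher with either. Their medians were -0.19 with the negative control and -0.10 with the mimic. T and B cell markers and mast cell markers reached at most 0.39 TPM in sum. The part of these cell types in the results below was not tested, and in bulk RNA fewer cells of a type and less RNA per cell cannot be told apart.

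The chosen genes were moderately higher and mostly of low abundance. Their median log2 ratio was 0.57 with the negative control (range 0.40 to 1.20) and 0.56 with the mimic (0.40 to 1.39). The medians over all genes considered were 0.00 with the negative control and 0.01 with the mimic. Among all genes considered, 221 genes (2.0%) were at least 0.4 higher in the negative control library and 327 (2.95%) in the mimic library than in the untransfected knockout. Both ratios have the untransfected knockout as their denominator, so 1 low value in that library raises both at once. The direction and size of these ratios are a property of the choice and not a result. Counting error is larger in genes with few counts, so a fixed ratio limit favours such genes. The low abundance of the chosen genes is therefore no result either. Among the chosen genes only Nefm was at least 2-fold higher in both transfected libraries, 4 genes reached 2-fold with the negative control and 1 with the mimic. For 44 genes the smaller of the 2 ratios was under 0.5, and for 22 it was at least 0.6.

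**Figure D1:**
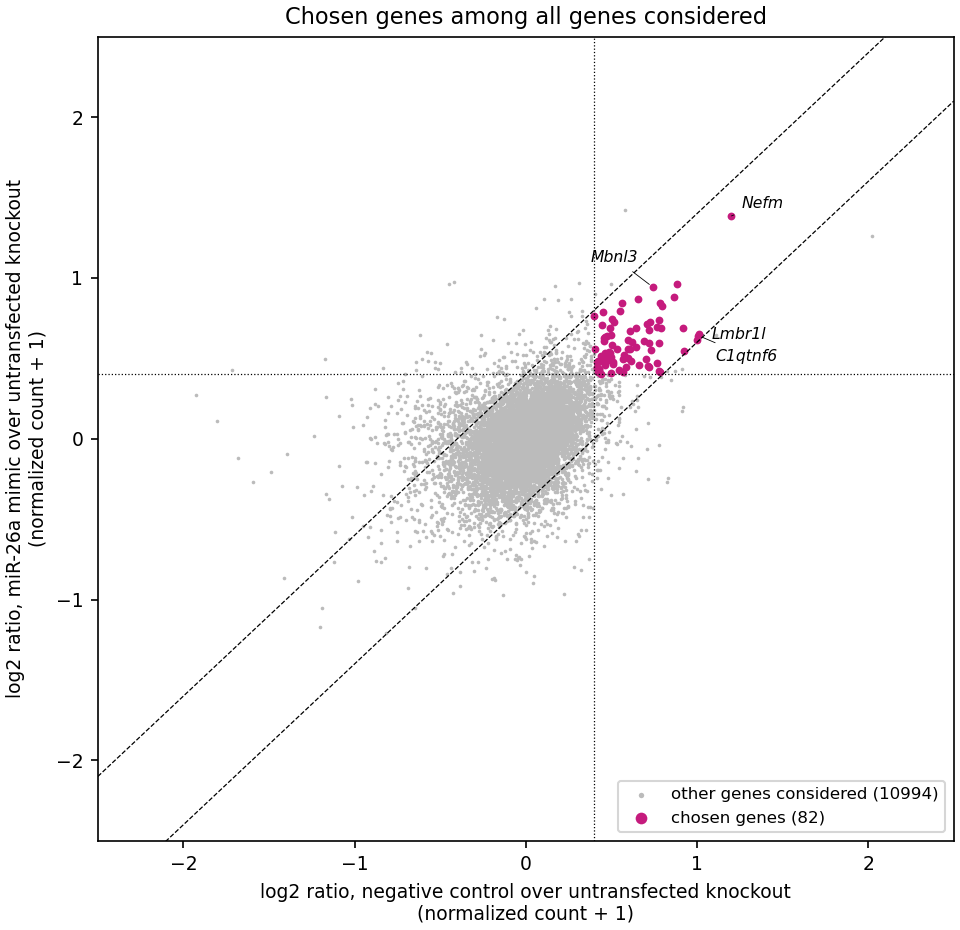
Log2 ratio of the miR-26a mimic library (vertical axis) against that of the negative control library (horizontal axis), each over the untransfected knockout, for the 82 chosen genes (magenta) and the other 10994 genes considered (grey). Dotted lines mark 0.4 on each axis and dashed lines a difference of 0.4 between the ratios. The chosen genes fill the corner these lines cut out, where Nefm is the only one beyond 1 on both axes, and 1 other gene lies outside the plotted range.

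Counting error was judged by an exact conditional binomial interval at 95% on the ratio of the 2 counts, called the counting interval. It covers counting error only and says nothing of the spread between cultures. The genes were chosen by ratios of these same libraries, so the choice itself favours intervals above 0. The numbers that follow describe the chosen genes and are no support for them. Both counting intervals lay above 0 for 62 of the 82 genes. For the other 20, among them Cd40, Msi1, Fgf13, Ctnnd2, Kcnt2, Tgif2 and Ndufaf6, at least 1 interval reached 0 or below. Both lower bounds were at least 0.4 for 9 genes. In the untransfected knockout 42 genes had fewer than 100 normalized counts and 13 had more than 1000. The median level over the transfected libraries was 6.37 TPM for the chosen genes and 24.6 TPM for all genes considered. In sum the 82 genes took 3321 TPM in the negative control library, 3571 in the mimic library, 2267 in the untransfected knockout and 2692 in the wild type.

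The values near the limits show how narrow the choice was. Just inside the ratio limit lay Npcd and Shld1, with smaller log2 ratios of 0.40 and 0.41. Just outside were Zc3h12b, Sphk1 and Pvr, each at 0.40 when rounded and under 0.4 before rounding. Inside the limit on the difference lay Etv4, Ndufaf6 and Tgif2, whose ratios differed by 0.39, 0.38 and 0.37, and outside it Col5a3, Adh7 and Egr3, whose ratios differed by 0.40, 0.45 and 0.47. At the count limit Fgf13, Ctnnd2 and Cd40 stood inside, with 51.6, 52.5 and 52.6 normalized counts in their lower transfected library, and Etfbkmt and Smim27 outside with 48.9 and 47.1.

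The genes were grouped by what their proteins do, after their names were known. The share of each group among all genes considered was not counted, so the size of a group is no result. Among ligands and growth factor family members, Csf1 carried the most RNA. Csf1 (Entrez 12977, chr3:107741048-107760469) encodes macrophage colony-stimulating factor, which keeps macrophages alive and growing. Csf1 had 20332 (negative control), 19288 (mimic), 13689.6 (untransfected knockout) and 11250.3 (wild type) normalized counts, which makes both transfected libraries higher than both untransfected ones. Its log2 ratios were 0.57 with the negative control (counting interval 0.54 to 0.60) and 0.49 with the mimic (0.46 to 0.53). Csf1r, the receptor of this factor on macrophages, had 15486 (negative control), 14892 (mimic), 14715 (untransfected knockout) and 4668 (wild type) normalized counts, with ratios of 0.07 with the negative control and 0.02 with the mimic, so the receptor was close to level across the 3 knockout libraries. Ccl2 (Entrez 20296, chr11:82035577-82037452), a chemokine that draws monocytes, had 1558 (negative control), 1726 (mimic), 1134 (untransfected knockout) and 933 (wild type) normalized counts. Its ratios were 0.46 with the negative control (counting interval 0.35 to 0.57) and 0.61 with the mimic (0.50 to 0.72), and it too was higher in each transfected library than in either untransfected one. Its receptor gene Ccr2 had at most 9.91 normalized counts in any library.

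C1qtnf6, a secreted protein of the C1q and tumour necrosis factor related family, had 1324 (negative control), 1027 (mimic), 658 (untransfected knockout) and 1947 (wild type) normalized counts. It was lowest in the untransfected knockout and highest in the wild type, with ratios of 1.01 with the negative control (counting interval 0.87 to 1.15) and 0.64 with the mimic (0.50 to 0.79). Sema7a, a membrane-anchored semaphorin, had 392 (negative control), 389 (mimic), 255 (untransfected knockout) and 918 (wild type) normalized counts, again with the wild type above all knockout libraries. Its binding partners Itgb1 and Plxnc1 had ratios within 0.14 of 0 in both transfected libraries. Fgf13, a growth factor homologue that stays inside the cell and binds sodium channels, was near the count limit with 51.7 (negative control), 51.6 (mimic), 38.4 (untransfected knockout) and 12.4 (wild type) normalized counts, and both its counting intervals included 0.

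A small set of receptors and immune cell proteins was low in abundance and lower still in the wild type. Gpr84, a receptor of myeloid cells for medium-chain fatty acids, had 97.9 (negative control), 93.2 (mimic), 57.1 (untransfected knockout) and 29.0 (wild type) normalized counts, with ratios of 0.77 with the negative control (counting interval 0.30 to 1.28) and 0.70 with the mimic (0.21 to 1.21). Ptgir, the prostacyclin receptor, had 188 (negative control), 177 (mimic), 116 (untransfected knockout) and 107 (wild type) normalized counts. Pram1, an adaptor protein of myeloid cells, had 109 (negative control), 106 (mimic), 71.6 (untransfected knockout) and 45.6 (wild type). In these 3 genes each transfected library exceeded both untransfected ones. Cd40, a costimulatory receptor of antigen-presenting cells, had 52.6 (negative control), 63.5 (mimic), 38.4 (untransfected knockout) and 32.2 (wild type) normalized counts, and its negative control interval included 0 (-0.17 to 1.09).

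Plau (Entrez 18792, chr14:20836662-20843388), the protease urokinase, had 2721 (negative control), 3217 (mimic), 1918 (untransfected knockout) and 1614 (wild type) normalized counts. Its ratios were 0.50 with the negative control (counting interval 0.42 to 0.59) and 0.75 with the mimic (0.66 to 0.83), and the mimic was above the negative control by a log2 ratio of 0.24 (counting interval 0.17 to 0.31). It was lowest in the wild type. Some other genes of the urokinase system were not chosen. Plaur, the urokinase receptor, had ratios of 0.18 with the negative control and 0.23 with the mimic. Plat, the tissue-type activator, had 0.20 with the negative control and -0.30 with the mimic, and Serpine2, an inhibitor of these proteases, had -0.26 with the negative control and -0.06 with the mimic. Serpinb2, a further inhibitor, had at most 10.9 normalized counts in any library. Of the 29 matrix proteases and inhibitors considered, 4 were at least 0.4 higher and 3 lower with the negative control, and 3 higher and 1 lower with the mimic. Among all genes considered, 2.0% were at least 0.4 higher and 4.8% lower with the negative control, and 2.95% higher and 3.59% lower with the mimic. These shares are the background of every list count that follows.

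Matrix proteins and the remaining proteases had a different order of libraries, with the wild type highest. Adamts14, a procollagen N-proteinase, had 186 (negative control), 191 (mimic), 118 (untransfected knockout) and 317 (wild type) normalized counts, with ratios of 0.65 with the negative control (counting interval 0.31 to 0.99) and 0.69 with the mimic (0.35 to 1.04). Capn6, a calpain without protease activity that binds microtubules, had 298 (negative control), 311 (mimic), 195 (untransfected knockout) and 1137 (wild type). Fbn2, the microfibril protein fibrillin-2, had 396 (negative control), 330.1 (mimic), 241 (untransfected knockout) and 1474 (wild type). Its relative Fbn1 was low in the negative control library alone, with 9479 (negative control), 35630.3 (mimic), 33043 (untransfected knockout) and 56611 (wild type) normalized counts. Cdsn, an adhesion protein known from skin, had 2193 (negative control), 2205 (mimic), 1629 (untransfected knockout) and 3328 (wild type) normalized counts and ratios of 0.43 with the negative control (counting interval 0.34 to 0.52) and 0.44 with the mimic (0.34 to 0.53). Of the 39 matrix glycoproteins and proteoglycans considered, 1 was at least 0.4 higher and 9 lower with the negative control, and 4 were higher and 3 lower with the mimic, beside 2.0% higher and 4.8% lower of all genes considered with the negative control and 2.95% higher and 3.59% lower with the mimic.

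Redox and amino acid genes were among the best measured. Srxn1 (Entrez 76650, chr2:152105524-152111376) encodes sulfiredoxin, which repairs overoxidized peroxiredoxins and is a known NRF2 target. Srxn1 had 3087 (negative control), 2879 (mimic), 1785 (untransfected knockout) and 1979 (wild type) normalized counts. Its ratios were 0.79 with the negative control (counting interval 0.71 to 0.88) and 0.69 with the mimic (0.60 to 0.78), with both untransfected libraries below both transfected ones. The genes of its substrates Prdx1, Prdx2, Prdx3 and Prdx4 had ratios between -0.15 and 0.09 in the transfected libraries. Nqo1 (Entrez 18104, chr8:107388225-107403205), a quinone reductase and another NRF2 target, had 872 (negative control), 1104 (mimic), 638 (untransfected knockout) and 185 (wild type) normalized counts. Its ratios were 0.45 with the negative control (counting interval 0.30 to 0.60) and 0.79 with the mimic (0.65 to 0.94), and its wild-type value was far below every knockout library.

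The promoter of Srxn1 is shown because it holds the antioxidant and AP-1 motifs searched for, and those of Nqo1 and Slc7a1 because they hold a TATA motif near the start. Each window runs from 250 bases before to 50 bases after the transcription start, from RefSeq (GRCm38.p6). Capitals mark TGANTCA and TGACNNNGC in Srxn1, on either strand, and TATAAA in the other windows.
Srxn1, chr2:152105274-152105573, plus strand: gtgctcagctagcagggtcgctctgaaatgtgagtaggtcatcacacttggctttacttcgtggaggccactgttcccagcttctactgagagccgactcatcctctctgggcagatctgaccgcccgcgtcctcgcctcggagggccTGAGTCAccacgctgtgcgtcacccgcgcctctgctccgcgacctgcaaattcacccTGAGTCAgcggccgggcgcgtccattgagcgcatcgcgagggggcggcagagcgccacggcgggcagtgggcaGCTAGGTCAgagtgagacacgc
Nqo1, chr8:107403156-107403455, minus strand: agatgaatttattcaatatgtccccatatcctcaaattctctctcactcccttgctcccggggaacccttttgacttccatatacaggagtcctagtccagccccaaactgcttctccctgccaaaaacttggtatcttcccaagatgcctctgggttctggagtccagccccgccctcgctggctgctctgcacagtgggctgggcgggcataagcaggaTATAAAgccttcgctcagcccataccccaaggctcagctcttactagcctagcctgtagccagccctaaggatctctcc
Slc7a1, chr5:148392766-148393065, minus strand: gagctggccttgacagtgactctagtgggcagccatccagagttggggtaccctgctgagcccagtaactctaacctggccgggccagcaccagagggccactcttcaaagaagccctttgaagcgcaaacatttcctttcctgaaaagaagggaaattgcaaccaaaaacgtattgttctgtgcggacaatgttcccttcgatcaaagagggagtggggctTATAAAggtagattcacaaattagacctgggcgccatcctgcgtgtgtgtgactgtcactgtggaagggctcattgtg
In Srxn1 TGANTCA began 102 and 45 bases before the start and TGACNNNGC 28 bases after it. Only TGACNNNGC was searched as the antioxidant motif, and sequences with G in place of its first C were not counted. The TGANTCA match that began 45 bases before the start is followed by gc and has this form. TATAAA began 29 bases before the start in Nqo1 and 28 bases before it in this window of Slc7a1, which has a further start with its own window. A match is a description of letters and was not tied to binding of any factor.

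Psat1 (Entrez 107272, chr19:15905123-15925059), an enzyme of serine synthesis, had 2786 (negative control), 2831 (mimic), 1926 (untransfected knockout) and 1976 (wild type) normalized counts. Its ratios were 0.53 with the negative control (counting interval 0.45 to 0.62) and 0.56 with the mimic (0.47 to 0.64), and its wild-type value lay next to that of the untransfected knockout. Phgdh and Psph, which act before and after Psat1, were also above the untransfected knockout but under the limit, with ratios of 0.35 with the negative control and 0.38 with the mimic in Phgdh and 0.25 with the negative control and 0.24 with the mimic in Psph. Cth, which makes cysteine from cystathionine, had 229 (negative control), 254 (mimic), 162 (untransfected knockout) and 188 (wild type) normalized counts. Slc7a1, the main carrier of arginine and lysine into cells, had 1824 (negative control), 1855 (mimic), 1366 (untransfected knockout) and 1246 (wild type) normalized counts. Its relatives had ratios of -0.33 with the negative control and -0.16 with the mimic in Slc7a2, 0.17 with the negative control and 0.10 with the mimic in Slc7a6, and 0.20 with the negative control and 0.05 with the mimic in Slc7a7. Trib3, a pseudokinase induced by ATF4 under amino acid shortage, had 922 (negative control), 893 (mimic), 647 (untransfected knockout) and 876 (wild type) normalized counts, so its wild type was almost level with the transfected libraries.

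Some of these genes stand on the NRF2 list or on the list of the ATF4 and amino acid response. Of the 23 NRF2 genes considered, 5 were at least 0.4 higher and 0 lower with the negative control, and 2 were higher and 1 lower with the mimic. The list's median ratio was 0.22 with the negative control and 0.09 with the mimic, and Srxn1 and Nqo1 were its only chosen genes. Slc7a11, the cystine carrier, was a gene of both lists that was not chosen, with 586 (negative control), 299 (mimic), 357 (untransfected knockout) and 213 (wild type) normalized counts, where only the negative control library stood above the untransfected knockout. Of the 22 genes of the ATF4 and amino acid response, 5 were higher and 1 lower with the negative control and 4 higher and 0 lower with the mimic, with medians of 0.15 with the negative control and 0.18 with the mimic. Atf4 itself had ratios of 0.14 with the negative control and 0.17 with the mimic. Psat1 and Trib3 were the chosen genes of that list. Of all genes considered, 2.0% were higher and 4.8% lower with the negative control, and 2.95% higher and 3.59% lower with the mimic. With the negative control 18 of the 23 NRF2 genes and 19 of the 22 ATF4 genes had ratios above 0, beside 5678 of 11076. With the mimic 15 and 15 did, beside 5722. The part of either pathway in the chosen genes was not tested.

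Lipid, mitochondrial and sugar genes were mostly of low or middle abundance. Abcg1, which exports cholesterol from cells, had 2447 (negative control), 2203 (mimic), 1652 (untransfected knockout) and 1179.6 (wild type) normalized counts. Its ratios were 0.57 with the negative control (counting interval 0.48 to 0.66) and 0.42 with the mimic (0.32 to 0.51). Elovl4, which lengthens very long fatty acids, had 104 (negative control), 98.1 (mimic), 73.7 (untransfected knockout) and 76.8 (wild type), and Gk5, of the glycerol kinase family, had 124 (negative control), 112 (mimic), 82.0 (untransfected knockout) and 144 (wild type). In Gk5 the wild type was the highest library and in Abcg1 the lowest. Ppif, the mitochondrial cyclophilin of the permeability transition pore, had 166 (negative control), 144 (mimic), 102 (untransfected knockout) and 104 (wild type) normalized counts. Ndufaf6, an assembly factor of respiratory complex I, had 73.9 (negative control), 56.5 (mimic), 38.4 (untransfected knockout) and 48.8 (wild type), and Slc25a40, a mitochondrial inner membrane carrier, had 268 (negative control), 269 (mimic), 191 (untransfected knockout) and 243 (wild type). The sugar transferases Gcnt2 and Fut4 had negative control ratios of 0.46 and 0.49 and mimic ratios of 0.46 and 0.69.

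Nefm and Pcdh9, the genes with the highest smaller ratio, encode structural and contact proteins known from neurons. Nefm (Entrez 18040, chr14:68119545-68125004), the medium neurofilament chain, had 61.0 (negative control), 69.4 (mimic), 25.9 (untransfected knockout) and 20.7 (wild type) normalized counts. Its ratios were 1.20 with the negative control (counting interval 0.55 to 1.96) and 1.39 with the mimic (0.74 to 2.14), from counts that were low in every library. Pcdh9, a protocadherin, had 163 (negative control), 173 (mimic), 88.2 (untransfected knockout) and 115 (wild type), with ratios of 0.88 with the negative control (counting interval 0.51 to 1.28) and 0.96 with the mimic (0.59 to 1.36). In both genes the transfected libraries exceeded the untransfected ones. Fscn1, the actin-bundling protein fascin, was the abundant member of this set with 3542 (negative control), 3241 (mimic), 2148 (untransfected knockout) and 3559.6 (wild type) normalized counts. Its ratios were 0.72 with the negative control (counting interval 0.64 to 0.80) and 0.59 with the mimic (0.51 to 0.67), and its wild-type value was close to that of the negative control library. Ctnnd2, delta-catenin of cell junctions, had 54.5 (negative control), 52.5 (mimic), 36.3 (untransfected knockout) and 1.04 (wild type), and Cfap300, a factor for the assembly of cilia, had 70.2 (negative control), 81.3 (mimic), 48.8 (untransfected knockout) and 76.8 (wild type). For Ctnnd2 both counting intervals against the untransfected knockout included 0.

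The channels and transporters grouped here were mostly of low abundance. The transporters Slc7a1, Abcg1 and Slc25a40 were placed in other groups. Kcnma1, the pore subunit of the large-conductance calcium-activated potassium channel, had 78.5 (negative control), 79.3 (mimic), 42.5 (untransfected knockout) and 62.2 (wild type) normalized counts, with ratios of 0.87 with the negative control (counting interval 0.33 to 1.46) and 0.88 with the mimic (0.34 to 1.48). Its auxiliary subunit genes Kcnmb1 and Kcnmb4 had at most 10.4 normalized counts in any library. Kcnt2, a sodium-activated potassium channel, had 107 (negative control), 93.2 (mimic), 67.4 (untransfected knockout) and 57.1 (wild type), and Slc28a2, a nucleoside carrier, had 65.6 (negative control), 60.5 (mimic), 44.6 (untransfected knockout) and 66.4 (wild type). Slc9a8, a sodium and proton exchanger of internal membranes, was the best counted of the set with 812 (negative control), 847 (mimic), 608 (untransfected knockout) and 603 (wild type) and ratios of 0.42 with the negative control (counting interval 0.26 to 0.57) and 0.48 with the mimic (0.32 to 0.63). Slc35f1 had 64.6 (negative control), 66.4 (mimic), 45.7 (untransfected knockout) and 189.9 (wild type), so the wild type exceeded every knockout library.

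RNA-binding and RNA-processing proteins, as grouped here, formed 8 of the 82 genes, without a background share. Igf2bp2 (Entrez 319765, chr16:22059009-22163299) encodes a protein that binds and stabilizes mRNAs. Igf2bp2 had 815 (negative control), 851 (mimic), 473 (untransfected knockout) and 782 (wild type) normalized counts, so that the untransfected knockout was the low library and the wild type was close to the transfected ones. Its ratios were 0.78 with the negative control (counting interval 0.62 to 0.95) and 0.84 with the mimic (0.68 to 1.01). Its relative Igf2bp3 had 132 (negative control), 135 (mimic), 75.7 (untransfected knockout) and 90.3 (wild type), with ratios of 0.79 with the negative control (counting interval 0.39 to 1.23) and 0.82 with the mimic (0.41 to 1.26). The remaining relative, Igf2bp1, had at most 11.4 normalized counts in any library.

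Mbnl3, a muscleblind splicing regulator, had 139 (negative control), 161 (mimic), 83.0 (untransfected knockout) and 66.4 (wild type) normalized counts, with ratios of 0.74 with the negative control (counting interval 0.35 to 1.16) and 0.94 with the mimic (0.56 to 1.36). The far more abundant Mbnl1 and Mbnl2 had ratios of -0.17 with the negative control and 0.09 with the mimic in Mbnl1 and -0.00 with the negative control and 0.07 with the mimic in Mbnl2. Rbpms2, an RNA-binding protein of smooth muscle, had 123 (negative control), 123 (mimic), 74.7 (untransfected knockout) and 129 (wild type) normalized counts. Msi1, an RNA-binding translational regulator of progenitor cells, had 73.0 (negative control), 59.5 (mimic), 42.5 (untransfected knockout) and 134 (wild type). Mex3c, an RNA-binding ubiquitin ligase, was better counted with 1283 (negative control), 1256 (mimic), 902 (untransfected knockout) and 1109 (wild type) and ratios of 0.51 with the negative control (counting interval 0.39 to 0.63) and 0.48 with the mimic (0.35 to 0.60). Its relatives Mex3a, Mex3b and Mex3d were not chosen, with negative control ratios of 0.33, -0.20 and -0.22 and mimic ratios of 0.26, -0.45 and 0.12. Noct (nocturnin), an enzyme with a daily rhythm, had ratios of 0.50 with the negative control and 0.51 with the mimic, and Zc3h8, a zinc finger protein, had 0.61 with the negative control and 0.56 with the mimic.

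Transcription factors, as grouped here, formed 9 of the 82 genes, also without a background share. Fosl1, an AP-1 subunit, had 274 (negative control), 242 (mimic), 165 (untransfected knockout) and 219 (wild type) normalized counts, with ratios of 0.73 with the negative control (counting interval 0.45 to 1.02) and 0.55 with the mimic (0.26 to 0.85). Fos and Fosl2, of the same family, had ratios of 0.08 with the negative control and 0.28 with the mimic in Fos and -0.03 with the negative control and 0.20 with the mimic in Fosl2. Etv4, of the ETS family, had 92.4 (negative control), 70.4 (mimic), 45.7 (untransfected knockout) and 43.6 (wild type), while its relatives Etv1 and Etv5 had negative control ratios of 0.02 and 0.17 and mimic ratios of -0.09 and 0.16. Irx1, a patterning homeobox gene, had 68.3 (negative control), 66.4 (mimic), 39.4 (untransfected knockout) and 5.19 (wild type), and its neighbour in the family Irx2 had 56.3 (negative control), 60.5 (mimic), 48.8 (untransfected knockout) and 8.30 (wild type). Both were several-fold lower in the wild type than in the knockout libraries. Irx3 and Irx5 had negative control ratios of 0.03 and -0.24 and mimic ratios of -0.02 and -0.41.

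Lbh, a transcriptional cofactor expressed in synovial fibroblasts, had 2661 (negative control), 2774 (mimic), 1982 (untransfected knockout) and 4571 (wild type) normalized counts. Its ratios were 0.42 with the negative control (counting interval 0.34 to 0.51) and 0.48 with the mimic (0.40 to 0.57), and the wild type was the highest library by a wide margin. Nfil3, a basic leucine zipper repressor, had 296 (negative control), 311 (mimic), 215 (untransfected knockout) and 337 (wild type) normalized counts. Tgif2, a corepressor of TGF-beta signalling, had 75.7 (negative control), 58.5 (mimic), 43.6 (untransfected knockout) and 106 (wild type) normalized counts. Zbtb46, known from dendritic cells, had 54.5 (negative control), 63.5 (mimic), 34.2 (untransfected knockout) and 85.1 (wild type) normalized counts. It was the only cell type marker among the chosen genes, and the only 1 of 6 dendritic markers to meet the count minimum. The zinc finger gene Zfp568 had ratios of 0.49 with the negative control and 0.54 with the mimic. Of the 26 immediate early genes considered, which growth factors and stress induce within minutes, 3 were at least 0.4 higher with the negative control and 7 with the mimic and 0 lower with either, and Fosl1 was the only chosen one.

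Chromatin and DNA repair genes were the largest of the groups made here, with 10 members and negative control ratios of 0.41 to 0.92. That size depends on how genes were assigned and has no background share. Trim66, a reader of histone marks, had 144 (negative control), 123 (mimic), 75.7 (untransfected knockout) and 121 (wild type) normalized counts. Epop, a partner of Polycomb complex PRC2, had 107 (negative control), 107 (mimic), 64.3 (untransfected knockout) and 85.1 (wild type), and Jade3, a subunit of a histone acetyltransferase complex, had 169.9 (negative control), 165 (mimic), 103 (untransfected knockout) and 186 (wild type). The untransfected knockout was the lowest library in all 3. Atxn7l3b, a regulator of histone deubiquitination, was the best counted with 2051 (negative control), 2127 (mimic), 1500.3 (untransfected knockout) and 2569 (wild type) normalized counts and ratios of 0.45 with the negative control (counting interval 0.35 to 0.55) and 0.50 with the mimic (0.41 to 0.60). Ifrd1, a transcriptional coregulator, had 936 (negative control), 954 (mimic), 700.4 (untransfected knockout) and 825 (wild type), and Bcl7a, of the SWI/SNF remodelling complex, had 231 (negative control), 237 (mimic), 167 (untransfected knockout) and 251 (wild type). Shld1, of the shieldin complex that protects DNA ends, had ratios of 0.41 with the negative control and 0.56 with the mimic, and its negative control interval reached -0.01. Atxn7l2, Bend6 and Proser1 had mimic ratios of 0.57, 0.60 and 0.43.

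Intracellular signalling genes included Prkar2a, a regulatory subunit of protein kinase A, with 1666 (negative control), 1875 (mimic), 1207 (untransfected knockout) and 1039 (wild type) normalized counts. Its ratios were 0.47 with the negative control (counting interval 0.36 to 0.57) and 0.64 with the mimic (0.53 to 0.74), and the mimic was above the negative control by 0.17 (counting interval 0.08 to 0.26). Rgs16, which shortens G protein signals, had 1243 (negative control), 1309.7 (mimic), 915 (untransfected knockout) and 1194 (wild type), with ratios of 0.44 with the negative control (counting interval 0.32 to 0.57) and 0.52 with the mimic (0.39 to 0.64). Prr5, a subunit of the mTORC2 kinase complex, had 105 (negative control), 125 (mimic), 71.6 (untransfected knockout) and 257 (wild type), and here the wild type was the highest library. Sfn (stratifin), Styk1 and Mcrip2 had fewer than 100 normalized counts in every library, and their negative control ratios were 0.60, 0.60 and 0.62.

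Ubiquitin-linked proteins were represented by adaptors and ligases. Klhl8, Klhl29 and Abtb2, whose BTB domains link substrates to a cullin ligase in related proteins, had negative control ratios of 0.50, 0.49 and 0.47 and mimic ratios of 0.58, 0.50 and 0.64. Hectd2, a HECT-type ligase, had 112 (negative control), 92.2 (mimic), 67.4 (untransfected knockout) and 164 (wild type) normalized counts. Ubl4a, which helps insert tail-anchored proteins into membranes, had 552 (negative control), 619.6 (mimic), 402 (untransfected knockout) and 481 (wild type) and overlaps the predicted gene Gm44504, whose values were 106 (negative control), 137 (mimic), 214 (untransfected knockout) and 61.2 (wild type). Among the less characterized genes, Lmbr1l had 156 (negative control), 121 (mimic), 76.8 (untransfected knockout) and 137 (wild type) normalized counts and ratios of 1.01 with the negative control (counting interval 0.62 to 1.44) and 0.65 with the mimic (0.23 to 1.09). Tmem136, Tmem8b and Lancl3 were below 100 normalized counts in every library. Npcd overlaps Nptxr, which had 23.1 (negative control), 47.6 (mimic), 94.4 (untransfected knockout) and 150.4 (wild type), and Cbx6. In all, 8 of the 82 genes overlap another gene of the table. Besides Ubl4a and Npcd these are Fosl1, Igf2bp3, Zbtb46, Tgif2, Bend6 and Atxn7l2. Whether counting used strand is not given in the sources used here, so reads of such pairs cannot be told apart.

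**Figure D2:**
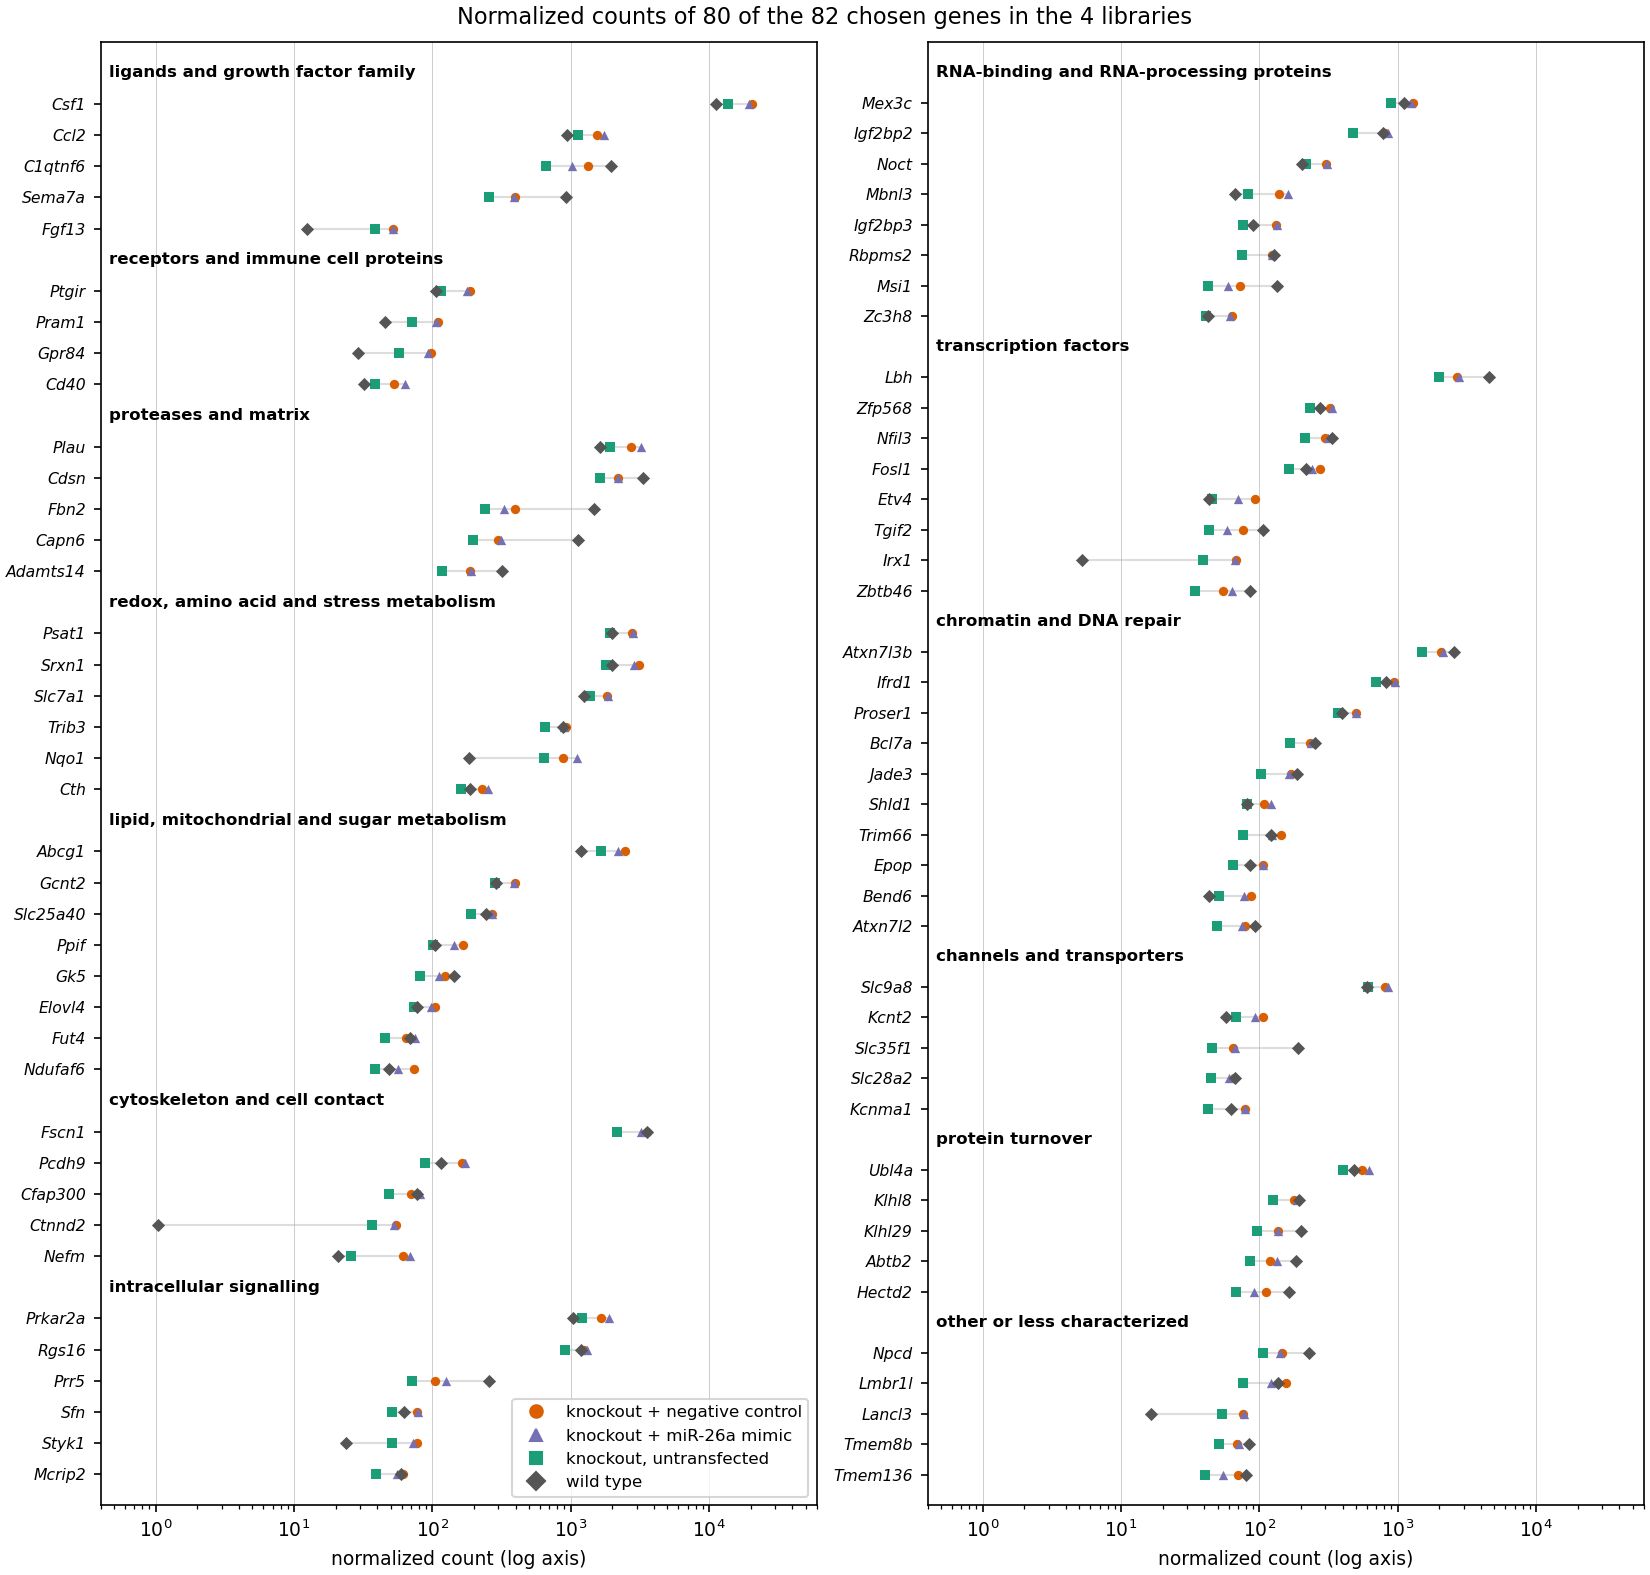
Normalized counts (log axis) of 80 of the 82 chosen genes in the negative control, mimic, untransfected knockout and wild-type libraries, 1 point per library, grouped by protein role and ordered by the untransfected knockout within a role. In every row the untransfected knockout lies left of both transfected libraries, as the choice requires, while the wild type lies on either side and is as low as 1.04 for Ctnnd2.

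The mimic and the negative control were close to each other in these genes, which the limit on the difference demands in part. The log2 ratio of mimic to negative control had a median of 0.01, beside a median of -0.00 over all genes considered, and it was above 0 for 44 genes and below 0 for 38. The counting interval of that ratio excluded 0 for 13 genes. In 6 of them, among which are Nqo1, Plau, Prkar2a, Ubl4a and Ccl2, the mimic library was higher. In 7, C1qtnf6, Lmbr1l, Fbn2, Abcg1, Fscn1, Srxn1 and Csf1, it was lower. Examples are Nqo1 at 0.34 (counting interval 0.21 to 0.47), C1qtnf6 at -0.37 (counting interval -0.48 to -0.25) and Lmbr1l at -0.37 (counting interval -0.72 to -0.02). The share of all genes considered with such an interval was not counted, so the 13 cannot be called few or many.

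The wild-type library did not enter the choice, although the untransfected knockout did. The median log2 ratio of untransfected knockout to wild type was -0.36 over the chosen genes and 0.03 over all genes considered. Of the 82 genes 38 were at least 0.4 lower in the untransfected knockout than in the wild type, where 15.6% of all genes considered were. A further 9 were at least 0.4 higher, where 17.5% of all genes considered were, and 35 lay within 0.4. Because a low value in the untransfected knockout library favours both the choice and a low ratio to the wild type, this count was not tested against the background. The fibroblast markers were also lower in the untransfected knockout than in the wild type (16620.1 against 25284 TPM in sum) and the macrophage markers higher (32972 against 22326 TPM), and the part of this difference in the ratios was not tested.

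The largest differences between the untransfected knockout and the wild type went in both directions. The lowest ratios of untransfected knockout to wild type were those of Fbn2 at -2.61 (counting interval -2.82 to -2.41), Capn6 at -2.54 (counting interval -2.77 to -2.32), Slc35f1 at -2.03 (counting interval -2.57 to -1.57) and Sema7a at -1.84 (counting interval -2.06 to -1.64). In all 4 the transfected libraries also stayed below the wild type. The highest ratios were those of Ctnnd2 at 4.19 (counting interval 2.56 to 10.47), which rests on 1 count in the wild type, Irx1 at 2.71 (counting interval 1.58 to 4.63), Nqo1 at 1.78 (counting interval 1.55 to 2.04) and Lancl3 at 1.64 (counting interval 0.87 to 2.61).

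Set against the wild type, the chosen genes were only slightly higher in the transfected cultures. The median log2 ratio to the wild type was 0.24 with the negative control and 0.21 with the mimic, beside 0.04 for each over all genes considered. The wild type lay below both transfected libraries for 49 genes, which is 59.8% of the chosen genes and 45.8% of all genes considered. For 25 of these it also lay below the untransfected knockout, and for 24 it lay between the untransfected knockout and the lower transfected library. It was above both transfected libraries for 29 genes, and between them for 4. The choice asks for high values in both transfected libraries, which also favours values above the wild type. These medians and shares were therefore not tested against the background.

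**Figure D3:**
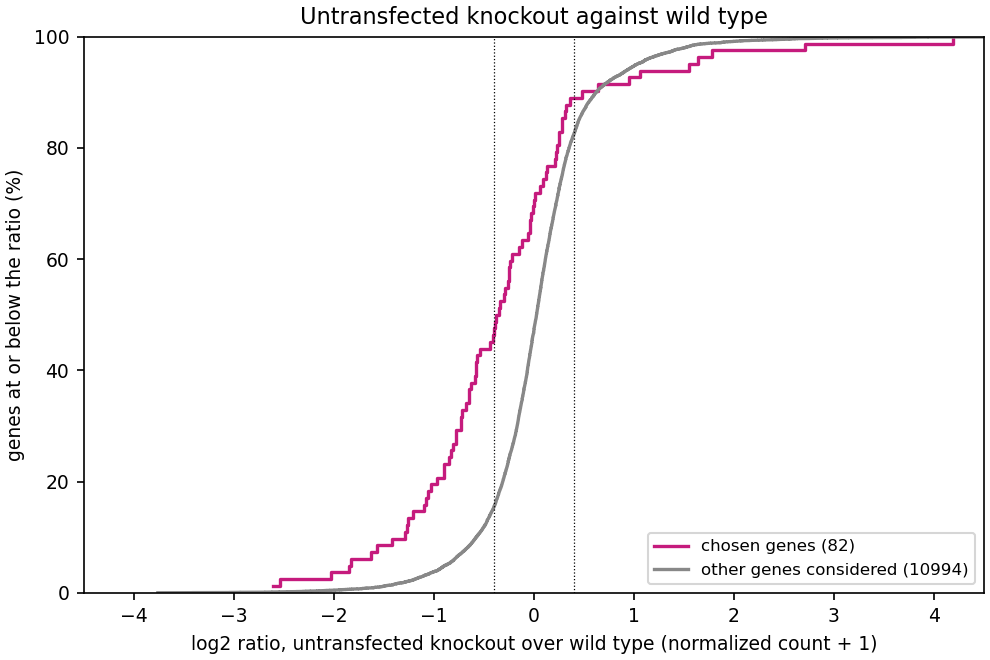
Share of genes (percent, vertical axis) at or below a given log2 ratio of untransfected knockout to wild type (horizontal axis) for the 82 chosen genes (magenta) and the other 10994 genes considered (grey), with dotted lines at -0.4 and 0.4. The magenta curve lies left of the grey one through the middle, with medians of -0.36 for the chosen genes and 0.03 for all genes considered, and its right tail reaches 4.19 for Ctnnd2.

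Gene lists for pathways, stress responses and cell types were set beside the chosen genes. The chosen genes are 0.74% of the genes considered, so no chosen gene on a short list is near the background. Of 34 lists, none held more than 2 chosen genes, 11 of the 82 genes stood on at least 1 list and 71 on none. None of the 32 interferon-stimulated genes considered was chosen, 2 were at least 0.4 higher and 4 lower with the negative control, and 6 were higher and 0 lower with the mimic, beside 2.0% higher and 4.8% lower of all genes considered with the negative control and 2.95% higher and 3.59% lower with the mimic. The list's medians were -0.10 with the negative control and 0.15 with the mimic. None of the 23 genes for sensing foreign RNA and DNA was chosen either, with 0 higher and 1 lower with the negative control and 1 higher and 1 lower with the mimic. Of the 22 genes of the NF-kB response, 3 were higher and 2 lower with each oligonucleotide, and Ccl2 and Csf1 were chosen. Nfkbia, the feedback inhibitor of NF-kB, had ratios of -0.05 with the negative control and 0.02 with the mimic. Of the 20 chemokine and cytokine genes considered, which share Ccl2 and Csf1 with that list, 2 were higher and 3 lower with the negative control and 3 higher and 1 lower with the mimic. Abcg1 was the chosen gene of 18 fatty acid and LXR genes.

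**Figure D4:**
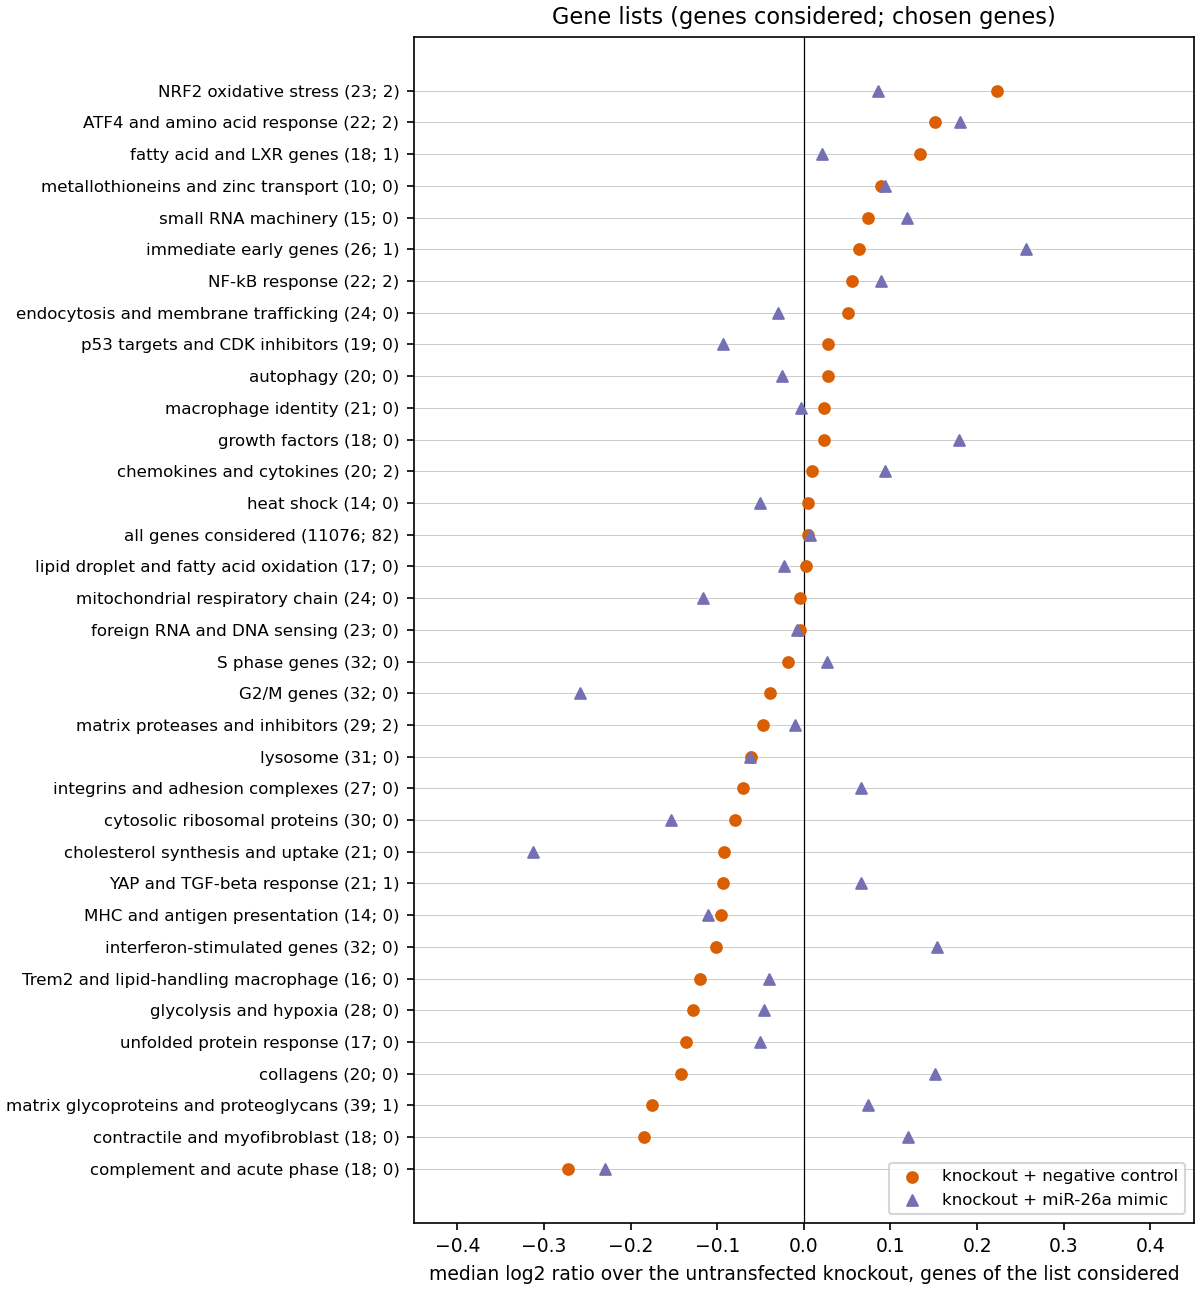
Median log2 ratio over the untransfected knockout for the negative control (circles) and the mimic (triangles) in gene lists with at least 3 genes considered; the numbers in parentheses are genes considered and chosen genes. The NRF2 list has the highest negative control median (0.22) and the immediate early list the highest mimic median (0.26), and no list reaches 0.4.

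Seed matches in the 3′ UTRs, taken from GENCODE M21 on GRCm38, were counted for 27 seeds. The longest annotated 3′ UTR of each gene was used, which need not be the one expressed in these cells. Some matches lie outside the RefSeq gene and were still counted in the shares given here and below. Examples are miR-125b, at chr14:68083427-68083433, and miR-16 in Nefm, let-7, miR-16 and miR-146a in Ifrd1, and miR-16 in Psat1. In Npcd the 3′ UTR has only 17 bases. All 82 chosen genes and 11035 of the genes considered had a 3′ UTR, with a median length of 1624 bases in the chosen genes and 1260 bases in the genes considered. The match to the seed of the mimic's sense strand, TACTTGA, stood in 10 chosen genes, 12.2%, beside 12% of the genes considered. These were Bcl7a, Cth, Ctnnd2, Gk5, Hectd2, Pcdh9, Slc35f1, Slc7a1, Tmem136 and Tmem8b. The limits of the choice leave out any gene that the mimic library holds at a clearly lower level than the negative control library, so the ratios of these genes carry no information on the match. Over all genes considered that had a 3′ UTR, the median log2 ratio of mimic to untransfected knockout was -0.03 with a sense-strand match and 0.01 without one. The medians of negative control to untransfected knockout were 0.02 with a match and 0.00 without one. The match to the antisense strand, AGAATAG, stood in 8 genes, 9.76%, beside 10.1% of the genes considered. Pcdh9 and Cth, described above, are printed as examples of the sense-strand match, with the match in capitals and flanks of 10 bases.
Pcdh9, site at chr14:93015094-93015100, minus strand: gggacctctaTACTTGAcattatactt
Cth, site at chr3:157894320-157894326, minus strand: ttaaaggttgTACTTGAtacttgttat

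Of the other seeds, that of miR-23a had the largest excess in the chosen genes. Its match, AATGTGA, stood in 27 of the 82 genes, 32.9%, beside 17.3% of the genes considered, and per kb of 3′ UTR the matches were 1.98 times as dense. The seeds were picked after the chosen genes were known, and this is the extreme of 27. The match of miR-16, TGCTGCT, stood in 34.1% of the chosen genes beside 25.9%, that of let-7, CTACCTC, in 17.1% beside 10.8%, and that of miR-214, CCTGCTG, in 15.9% beside 24.4%. The miR-23a matches of 4 of the genes with the largest ratios are printed, since these genes are RNA-binding or channel genes described above.
Igf2bp3, site at chr6:49085558-49085564, minus strand: taaaaaagaaAATGTGAccggctctcc
Mbnl3, site at chrX:51120349-51120355, minus strand: gtgactgaaaAATGTGAcaggttcatg
Rbpms2, site at chr9:65660477-65660483, plus strand: accctgtgagAATGTGAaactggatca
Kcnma1, site at chr14:23299111-23299117, minus strand: gcacacctagAATGTGAaggtcgtgag
Kcnma1 had 4 such matches, of which the first is shown. The level of miR-23a was not measured here.

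Promoter windows from RefSeq were found for 59 of the 82 genes (75 windows) and for 8940 of the genes considered (11508 windows). The TATA motif, TATAAA on either strand, stood in 14.7% of the windows of chosen genes and in 6.80% of those of the genes considered. Counted only on the gene's own strand and only where it began 25 to 35 bases before the start, a range set after the windows were seen, it stood in 4 of 75 windows (5.33%), those of Fscn1, Lbh, Nqo1 and Slc7a1, beside 0.843%. The ETS motif CCGGAAG stood in 8.0% beside 17.9%, and the E-box CACGTG in 4.0% beside 10.2%. The antioxidant motif TGACNNNGC was as frequent in the chosen genes (14.7%) as in the genes considered (14.4%), and AP-1, TGANTCA, stood in 8.0% beside 5.14%. The interferon-stimulated response element GAAANNGAA stood in 8.0% beside 7.11%, the NF-kB motif GGGNNTTCC in 4.0% beside 7.36% and the ATF4 motif TGATGNAA in 2.67% beside 2.20%. The cAMP response element TGACGTCA stood in 5.33% beside 2.98% and the C/EBP motif TTGCNNAA in 8.0% beside 8.25%. All motifs were searched on both strands. Windows of 1 gene can overlap, so the same match can count more than once, as TATAAA in Pram1 and TGACNNNGC in Mcrip2.

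**Figure D5:**
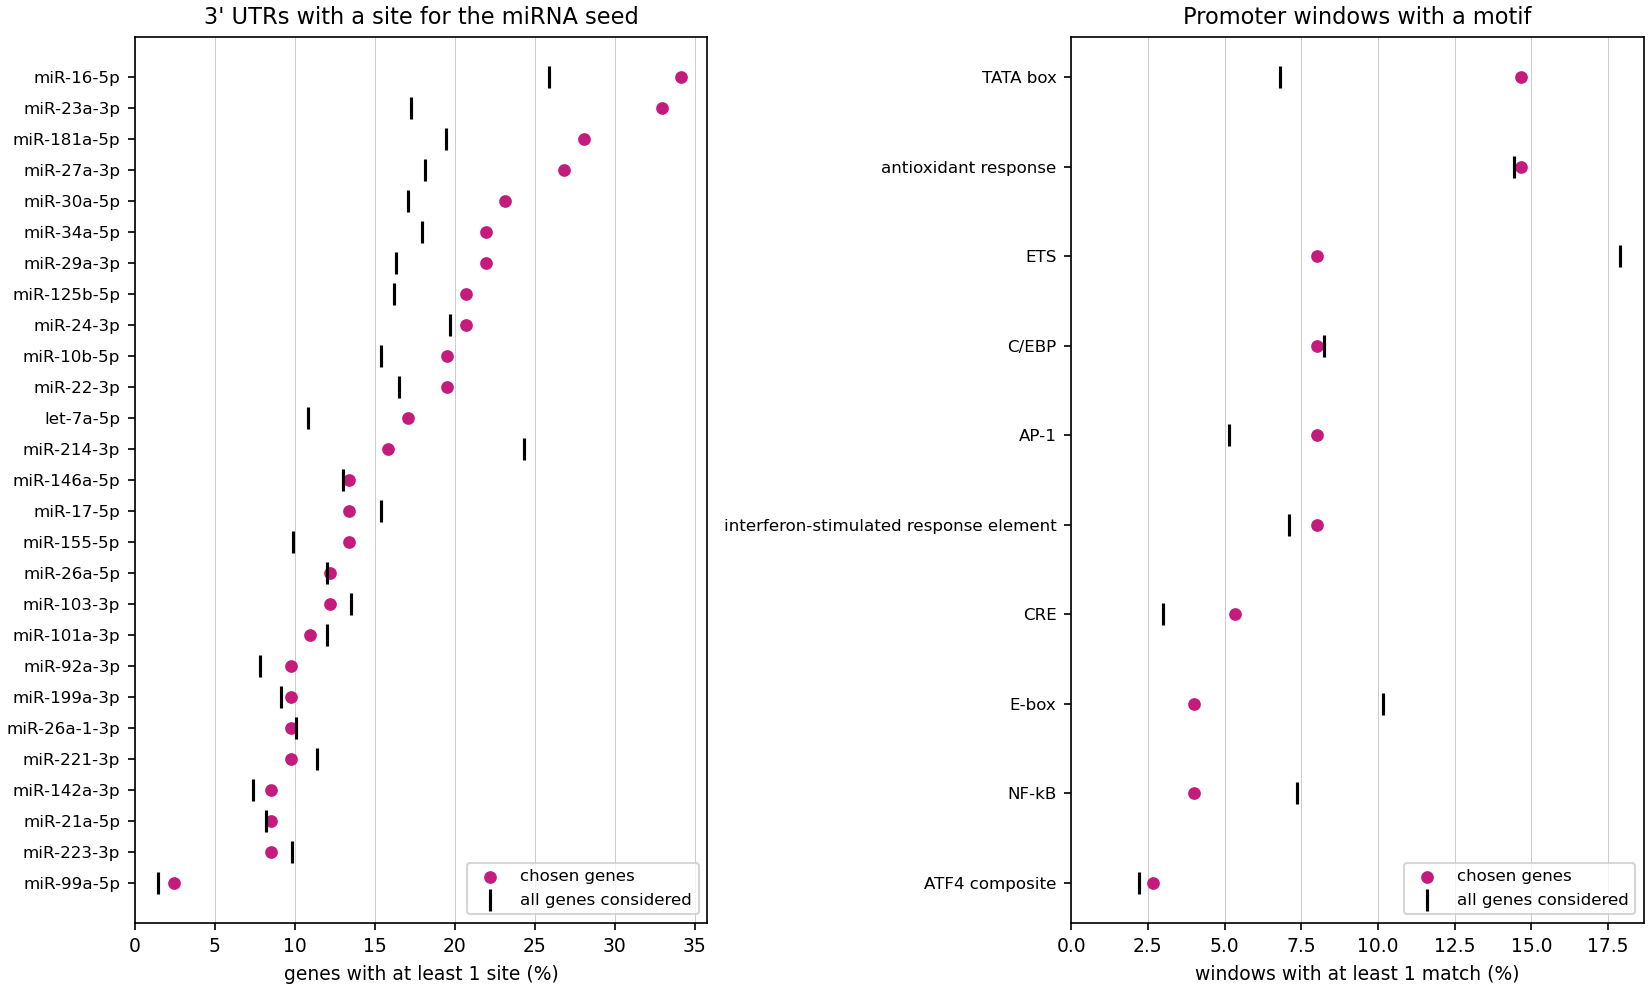
Left, percent of genes whose 3′ UTR holds at least 1 match to a miRNA seed; right, percent of promoter windows with at least 1 match to a motif; magenta points are the chosen genes and black ticks all genes considered. The miR-23a point (32.9%) stands farthest right of its tick (17.3%), the miR-26a-5p point (12.2%) sits on its tick (12%), and the TATA box (14.7% and 6.80%) and ETS (8.0% and 17.9%) points stand on opposite sides of theirs.

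The chosen genes were spread over the genome. Chromosome 2 held 10 of them (12.2%, beside 8.0% of the genes considered) and chromosome X held 6 (7.32% beside 3.28%). The closest pair, Srxn1 and Trib3, lie 226049 bases apart on chromosome 2. Median gene length was 24438 bases for the chosen genes and 25180.0 bases for the genes considered.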

How the data were processed

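RNA of 4 cultures was sequenced, 1 library per group, with groups assigned by the labels. Per the submitters' processing notes the tools FastQC, HISAT and Bowtie2 were used, with the builds GRCm38.p6 and mm10. How reads were turned into counts, with which annotation and whether by strand, is not given in the sources used here. Read counts were deposited by the authors, per the file headers, and since 4.99% to 5.28% of them per library have decimals they are treated as estimated counts. The authors also deposited normalized counts, a signal obtained from the values as the estimated count, rounded up, over a size factor of the library (1.08 for the negative control, 1.01 for the mimic, 0.964 for the untransfected knockout and 0.964 for the wild type). The TPM values deposited by the authors scale each library to the same sum. A second deposited table of the authors' pairwise comparisons was not used here. Spreadsheet dates in place of 26 gene symbols were restored through the Entrez identifier, and 16369 identifiers were found in RefSeq.

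The choice used the deposited normalized counts with a pseudocount of 1. Log2 ratios are on that scale and understate differences of genes with few counts. With 1 library per group no test was possible and no p-value is given. The 95% interval is the exact conditional binomial (Clopper-Pearson) interval of 2 counts scaled by the size factors, with estimated counts rounded to whole numbers. Reads are not independent molecules, so it covers counting error only. The 82 genes, the 34 gene lists, the protein roles, the families and partners compared and the 27 seeds were chosen with earlier results of these data known. Genes were named when among the 12 with the largest smaller ratio, the 8 most abundant, the 4 highest and 4 lowest between untransfected knockout and wild type, or next to a limit. The other members are named to describe their role group, and they and the genes that are no members were picked after their values were seen. A few genes that this rule names or that are members are not reported here by name. Genes before exclusion of names numbered 89, so 7 were left out. All 82 are protein-coding in RefSeq. Promoters, miRNAs and gene coordinates are from RefSeq (GRCm38.p6), and 3′ UTRs from GENCODE M21 (GRCm38). The alternatives were scaling with edgeR 4.0.16 TMM factors, DESeq2 1.42.0 size factors or library totals, TPM in place of normalized counts, other pseudocounts, limits and count minimums, names kept, and a shorter promoter window. R 4.3.3, Python 3.11.15, pandas 2.3.3 and scipy 1.17.1 were used.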

Additional observations from a re-analysis of the deposited data

How the results depend on the processing

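The number of chosen genes follows from its limits. It was 82 as reported, 383 with no minimum normalized count, 34 with a minimum of 200, 200 with a ratio limit of 0.3 and 22 with a limit of 0.6. Other scalings, pseudocounts and limits on the difference gave between 62 and 91 genes. With library totals 86 genes were chosen, of which 75 were among the 82, and with TPM 74, of which 61 were. Neither TMM factors nor library totals moved the median of all genes considered by more than 0.05. The median ratio of untransfected knockout to wild type stayed below 0 in every alternative, and was -0.74 with no minimum count and -0.25 with a minimum of 200, against -0.36 as reported. With no minimum the medians to the untransfected knockout were 0.88 with the negative control and 0.82 with the mimic. The median ratio of mimic to negative control was -0.01 with library totals and 0.00 to 0.05 in the others. The number at least 0.4 lower in the untransfected knockout than in the wild type was 36 to 41 under the other scalings, TPM and other pseudocounts. Restricted to 150 bases before the start, the C/EBP motif stood in 1.33% and the ETS motif in 2.67% of the windows of chosen genes, beside 3.96% and 11.3% of those of the genes considered. No paired analysis was possible because each group has 1 library. For the same reason no library could be left out, and the untransfected knockout, on which every ratio of the choice rests, has no replicate. For the 42 genes with fewer than 100 normalized counts there, the counting interval of a ratio was at least 0.77 wide on the log2 scale.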
